A study of Saccharomyces cerevisiae with 4 samples.

Results

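The 10 genes described here encode the glycolytic enzymes from phosphoglucose isomerase (PGI1) to pyruvate kinase (CDC19). They were found by their systematic names (PGI1 YBR196C, PFK1 YGR240C, PFK2 YMR205C, FBA1 YKL060C, TPI1 YDR050C, TDH1 YJL052W, PGK1 YCR012W, GPM1 YKL152C, ENO1 YGR254W and CDC19 YAL038W). All 10 had a value on each array. They are 10 of 6172 genes and unnamed features, of which 457 had no value on any array. The samples were 4 two-colour microarrays of Saccharomyces cerevisiae carrying an rlm1 mutation. RLM1 encodes a transcription factor that the cell wall integrity kinase cascade activates, and the mutation was present in both RNAs of every array. Each array set a culture grown in YEPD at 24 °C and given Zymolyase 100T at 5 units per ml for 3 hours, as the labels time it, against the part of that culture that was left untreated. Zymolyase is an enzyme mixture that breaks down wall glucan. There were 2 cultures by the series' design text, and each was put on a pair of arrays of opposite dye orientation. The treated RNA was in Cy3 for arrays 1 and 3, and in Cy5 for arrays 2 and 4. The labels name neither the parent strain nor the mutant allele.

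Glycolysis splits glucose into pyruvate and yields ATP. In yeast growing on glucose it carries most of the carbon, and several of its enzymes are among the most abundant proteins of the cell. Their genes are driven by the activators Gcr1 and Rap1. The pathway also feeds glycerol synthesis, which leaves it at dihydroxyacetone phosphate and which yeast uses against osmotic stress.

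All values are log2 ratios of zymolyase over untreated unless said otherwise. Arrays 2 and 4 were multiplied by -1 to undo the dye exchange. The sources used here give neither the log base nor the numerator of the deposited ratio: log2 and Cy3 over Cy5 were assumed, and the reading of the dyes is likely but not settled. It was based on the small stress protein gene HSP12, which it puts on the zymolyase side at 3.22, 3.09, 2.52 and 2.17 on arrays 1 to 4. With the opposite reading every sign below turns. Array 2 had the widest ratios, with an SD of 0.63 over its features against 0.32 to 0.35 on the other arrays, and the most features without a value, 1394. RLM1 itself had no value on any array. Its loss could not be checked from ratios in any case, since both RNAs carried the mutation. No signal intensities were analysed here, and precision is limited by having 4 arrays.

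None of the 10 genes passed the test for a change with zymolyase. Of the 4730 genes tested, 2.35% were called higher and 0.803% lower (3.15% in all), so 0 of 10 is close to that background. With a dye term fitted to the 4 arrays, 0 of 10 and 1.63% of all genes passed. That fit takes the 4 arrays as independent, which they are not fully, since each culture was put on 2 of them. The test was limma's moderated test on the means of the 2 cultures. Which arrays shared a culture is not labelled, so a call needed a Benjamini-Hochberg adjusted p below 0.05 under both possible pairings, and the larger adjusted p is given. The smallest mean that was called was 0.51 in size. The 10 means ran from -0.33 for PFK2 to -0.0044 for TDH1, with a median of -0.13 against -0.012 over all genes tested. All 10 were below 0, as were 52.6% of all genes. Without array 2 the median of the 10 plain means was -0.012 and 6 of them were below 0, as were 56.3% of all genes. On culture means, none of the 10 and 0.428% of all genes were then called. The fit with a dye term, without array 2, gave a median of 0.0092 and 4 of the 10 below 0. The share of all genes below 0 was then 57.4%.

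**Figure D1:**
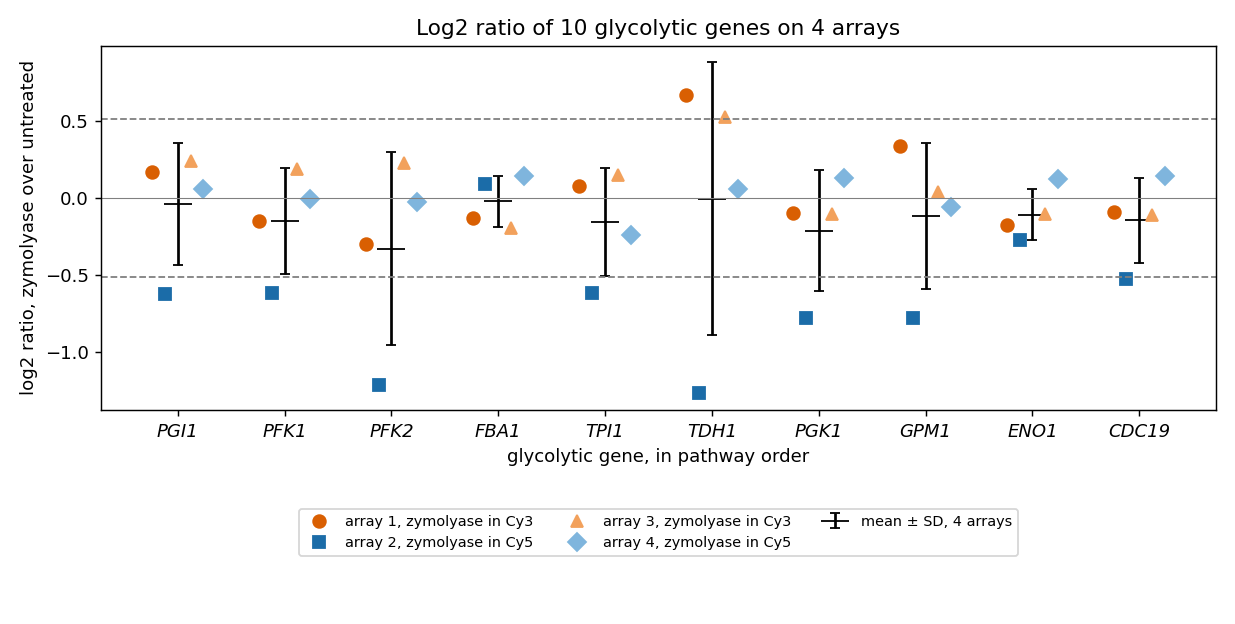
Log2 ratio of zymolyase over untreated (y axis) for the 10 glycolytic genes in pathway order (x axis), 1 symbol per array; black bars are the mean ± SD over 4 arrays and dashed lines mark 0.51, the smallest mean called in either direction. Array 2 was the lowest array for 9 of the 10 genes, and no mean reached the dashed lines.

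The size of most means rested on array 2, and the sign of 4 plain means turned without it (PGI1, PFK1, TDH1 and GPM1). Dye effects do not cancel in such a mean, since only array 4 then has zymolyase in Cy5. In the fit with a dye term, without array 2, 6 of the 10 means were above 0, and that of TDH1 was 0.33. On array 2, 9 of the 10 genes were below 0, with a median of -0.62 and a range from -1.27 for TDH1 to 0.089 for FBA1. It was the lowest array for 9 of the 10 genes, and for 35.0% of all genes. On array 1, 6 genes were below 0, with a median of -0.094. Arrays 3 and 4 had medians of 0.091 and 0.055, and 4 genes below 0 on each. None of the 10 genes had the same sign on all 4 arrays, which 16.8% of all genes had. Array 2 also had the widest spread over all genes, and its part in these means was not tested beyond leaving it out.

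The first steps of the pathway turn glucose phosphate into triose phosphates. PGI1 encodes the isomerase that makes fructose phosphate, and its ratios were 0.17, -0.62, 0.24 and 0.055 on arrays 1 to 4. Array 2 alone was below 0, and the mean was -0.040 ± 0.39 (SD, n = 4 arrays; limma adjusted p = 0.98). Without array 2 it was 0.15.

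PFK1 and PFK2 encode the alpha and beta subunits of phosphofructokinase, which commits sugar to glycolysis. The ratios of PFK1 were -0.15, -0.62, 0.19 and -0.010. Those of PFK2 were -0.30, -1.21, 0.22 and -0.030. Both subunit genes were highest on array 3, lowest on array 2 and close to 0 on array 4. The mean of PFK1 was -0.15 ± 0.34 (limma adjusted p = 0.84). PFK2 had the largest mean of the 10 genes, -0.33 ± 0.63, which is 0.796-fold. It was the only one of the 10 with an unadjusted p under 0.05 (0.042; limma adjusted p = 0.37), as were 12.5% of all genes, and its 95% interval, from the SE shared by all genes, ran from -0.65 to -0.012. With a dye term the interval was -0.74 to 0.076, and none of the 10 had an unadjusted p under 0.05. Without array 2 its mean was -0.035.

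Genes with the ratios most like those of PFK2 were sought by the smallest Euclidean distance over the 4 arrays. The 5 nearest were ALG7 (distance 0.18), SIN3 (0.19), MRPS28 (0.28), KOG1 (0.28) and EFT1 (0.29). All 5 shared the low value on array 2, between -1.27 for SIN3 and -0.99 for KOG1, and none was called (limma adjusted p from 0.32 for MRPS28 to 0.57 for EFT1). EFT1 is 1 of a pair of near-identical genes of elongation factor eEF2, so its value is uncertain.

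FBA1 encodes the aldolase that splits the sugar bisphosphate, and its ratios were -0.13, 0.089, -0.19 and 0.14. They were below 0 on both arrays with zymolyase in Cy3 and above 0 on both with zymolyase in Cy5. The mean was -0.023 ± 0.16 (limma adjusted p = 0.99), with the smallest SD of the 10. TPI1 encodes the isomerase that interconverts the triose phosphates, at the branch to glycerol. Its ratios were 0.075, -0.62, 0.15 and -0.24, the reverse arrangement of signs. Its mean was -0.16 ± 0.35 (limma adjusted p = 0.82), and -0.0055 without array 2.

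The later steps oxidise the triose phosphate and make ATP. TDH1 encodes a minor form of glyceraldehyde phosphate dehydrogenase, known to be induced by stress and in slowly growing cells. Its ratios were 0.67, -1.27, 0.53 and 0.056, the widest spread of the 10 genes. It was the highest of the 10 on arrays 1 and 3 and the lowest on array 2. These values cancelled to a mean of -0.0044 ± 0.88 (limma adjusted p = 1.00). The 95% interval of -0.32 to 0.31 uses an SE that limma gave to every gene alike and takes no account of this spread. A limma fit of the 4 arrays with a term for the dye gave an interval of -0.42 to 0.41. In it each gene's own spread counts in part, but the arrays are taken as independent. Without array 2 the plain mean of the other arrays was 0.42 for TDH1. On culture means, which weight those arrays otherwise, TDH1 did not pass (limma adjusted p = 0.25). With the ratios taken as already turned by the authors the mean over the 4 arrays was 0.60. TDH1 was then called higher (limma adjusted p = 0.0094), as were 4.55% of all genes.

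PGK1 encodes phosphoglycerate kinase, the first ATP-forming enzyme of the pathway, and its ratios were -0.097, -0.78, -0.10 and 0.13. The mean was -0.21 ± 0.39 (limma adjusted p = 0.68), and -0.024 without array 2. GPM1 encodes phosphoglycerate mutase, with ratios of 0.34, -0.78, 0.035 and -0.062. These 2 genes had nearly the same value on array 2 and differed in sign on each other array. The mean of GPM1 was -0.12 ± 0.47 (limma adjusted p = 0.90), and 0.10 without array 2.

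ENO1 encodes an enolase, the dehydrating enzyme before pyruvate kinase, and its ratios were -0.18, -0.27, -0.10 and 0.12. The mean was -0.11 ± 0.17 (limma adjusted p = 0.91), and its range over the arrays was the smallest after that of FBA1. CDC19 encodes the main pyruvate kinase, the last enzyme of the pathway. Its ratios were -0.092, -0.52, -0.11 and 0.14, with a mean of -0.15 ± 0.28 (limma adjusted p = 0.85). PGK1, ENO1 and CDC19 were all below 0 on arrays 1, 2 and 3 and above 0 on array 4.

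FBA1, PGK1, ENO1 and CDC19 also stood together on the deposited scale, before arrays 2 and 4 were turned. This group was picked after its values were seen. Their deposited ratios lay between -0.18 and -0.092 on array 1, between -0.19 and -0.10 on array 3, and between -0.14 and -0.12 on array 4. On array 4 they spanned 0.024, against an SD of 0.32 over that array's features. Their ranges held 12.5% of all genes measured on array 1, 12.2% on array 3 and 2.97% on array 4. They thus had one sign on these arrays whichever dye the zymolyase RNA carried. On array 2 the same 4 genes were spread from -0.089 to 0.78. Of the 5371 genes measured on arrays 1, 3 and 4, 10 lay inside all 3 ranges, of which these 4 do so by construction. The other 6 were NIT2, MLP1, PDC1, RPS1A, ISM1 and LOA1. PDC1 encodes the main pyruvate decarboxylase, the enzyme that follows glycolysis on the way to ethanol.

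TDH2 and TDH3, which encode the other glyceraldehyde phosphate dehydrogenases, and ENO2, the other enolase gene, lay in or beside the same ranges. With these and PDC1, which was added because it lay inside, the 8 genes spanned 0.086 on array 1, 0.10 on array 3, 0.035 on array 4 and 1.54 on array 2. Other related genes lay outside: TDH1 was at 0.67 and 0.53 on arrays 1 and 3, and the deposited ratios of PYK2, which encodes a minor pyruvate kinase, were 0.038, -0.078 and -0.26 on arrays 1, 3 and 4. TDH1, TDH2 and TDH3 are similar in sequence, as are ENO1 and ENO2, so labelled cDNA of one may bind the spot of another and their ratios are uncertain. After turning, array 2 stood at -1.27 for TDH1, -1.08 for TDH3 and 0.042 for TDH2. Binding of one gene's cDNA to another's spot was not tested.

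**Figure D2:**
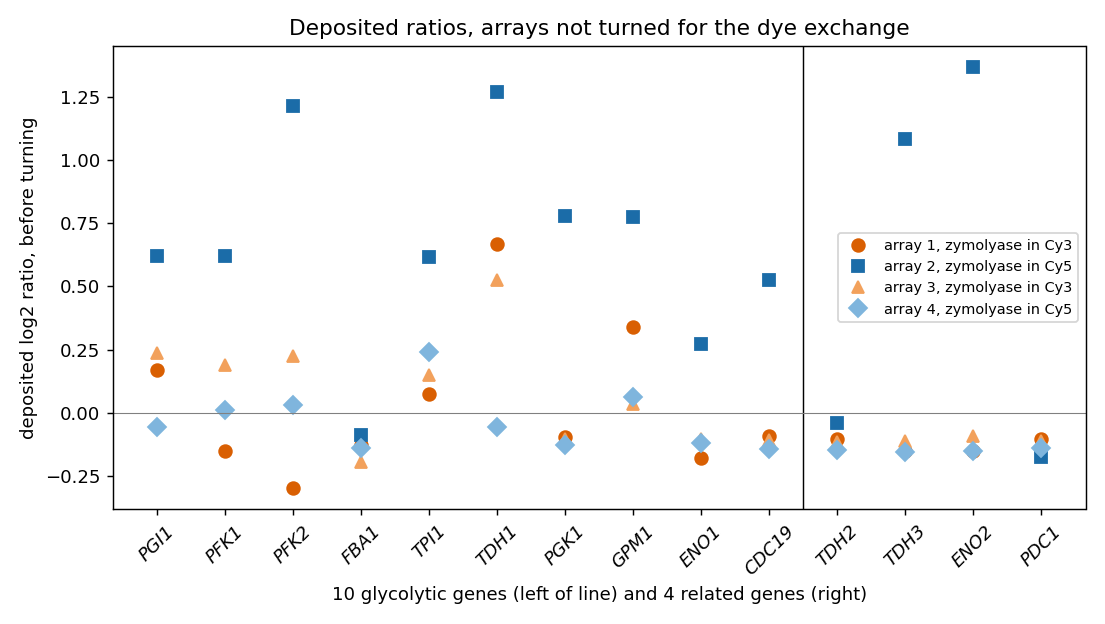
Deposited log2 ratios before turning (y axis) for the 10 glycolytic genes and for TDH2, TDH3, ENO2 and PDC1 (x axis), 1 symbol per array. FBA1, PGK1, ENO1, CDC19 and the 4 genes on the right lie between -0.19 and -0.0905 on arrays 1, 3 and 4, while array 2 lies between -0.17 and 1.37 for the same genes.

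The ratios were next compared between dye orientations. With zymolyase in Cy3 the ratio was higher than with zymolyase in Cy5 for 8 of the 10, and for 2265 of 4730 genes tested. The median difference was 0.41 on the log2 scale, against -0.021 over all genes. It was largest for TDH1, which had a mean of 0.60 over arrays 1 and 3 and of -0.61 over arrays 2 and 4. The difference of 1.20 (SE 0.38) did not pass in limma's fit with the dye term (adjusted p = 0.12). GPM1 (0.61), PFK2 (0.58), TPI1 (0.54) and PGI1 (0.48) followed with adjusted p values between 0.26 and 0.38 in that fit. FBA1 (-0.28) and ENO1 (-0.065) differed the other way. None of the 10 differences passed the fit with the dye term, in which 0.423% of all genes did, and TDH1 alone had an unadjusted p under 0.05, as did 1005 of 4730 genes. Without array 2 the difference turned to -0.0069 for PFK2, -0.23 for PGK1 and -0.24 for CDC19. Without array 4 it passed, higher with zymolyase in Cy3, for PGI1, PFK2, TPI1, TDH1, PGK1 and GPM1, as it did for 18.1% of all genes (35.1% in either direction), in a fit whose residual came from arrays 1 and 3 only.

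**Figure D3:**
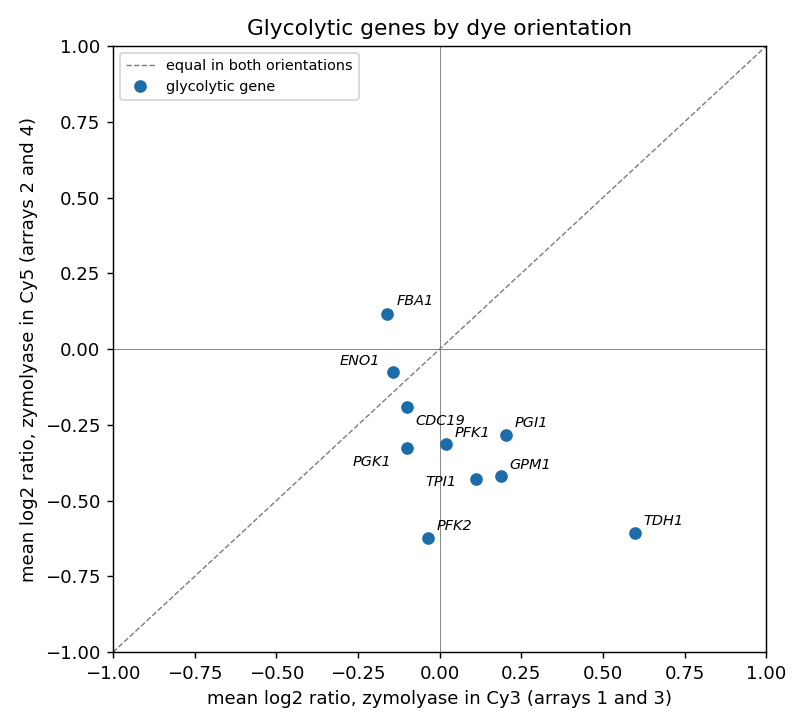
Mean log2 ratio of zymolyase over untreated with zymolyase RNA in Cy3 (x axis, arrays 1 and 3) against that with it in Cy5 (y axis, arrays 2 and 4), 1 point per glycolytic gene; a gene on the dashed line has the same ratio in both. FBA1 and ENO1 lie above the line and the other 8 genes below it, TDH1 farthest at 0.60 and -0.61.

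Around the pathway, 32 further genes were listed, of which 29 had a value on all 4 arrays. The test called 3 of them higher and none lower, against 2.35% and 0.803% of all genes tested. The other 26 did not pass, and the median of the 29 means was 0.024. The 3 that rose belong to the glycerol branch. GPD1 encodes the dehydrogenase that draws dihydroxyacetone phosphate out of glycolysis, and its ratios were 2.37, 2.20, 1.42 and 1.38. Its mean was 1.84 ± 0.52 (limma adjusted p = 1.0e-26). GPP1 and GPP2 encode the phosphatases that then release glycerol. Whether cDNA of one binds the spot of the other was not tested, so their ratios may not be independent. GPP1 had ratios of 0.66, 0.95, 0.71 and 0.55 (mean 0.72 ± 0.17, limma adjusted p = 0.00077) and GPP2 of 1.31, 1.60, 1.39 and 1.41 (mean 1.43 ± 0.12, limma adjusted p = 9.0e-16). These p values use the SE shared by all genes and leave out each gene's own spread. In limma's fit of the 4 arrays with a dye term, the adjusted p was 0.00024 for GPD1, 0.017 for GPP1 and 0.00017 for GPP2. All 3 were above 0 on every array, which held for none of the 10 glycolytic genes. With single arrays left out, the culture means of GPP1 did not pass (limma adjusted p from 0.081 to 0.44). The plain mean of its remaining arrays stayed between 0.64 and 0.77. In the fit with a dye term GPP1 passed without array 4 (adjusted p = 0.024) and not without the others. GPP2 did not pass without array 4 on culture means (0.052), while the plain mean of its remaining arrays was 1.43. GPD1 passed without each array (adjusted p at most 0.047), but not in the fit with a dye term without array 2 (0.066). All 3 calls depend on the turning of arrays 2 and 4: with the ratios taken as already turned, the means were 0.053 for GPD1, -0.033 for GPP1 and -0.080 for GPP2 (limma adjusted p from 0.84 to 0.95).

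Of the other genes in the branches, PDC5, a pyruvate decarboxylase gene, had ratios of 1.31, -1.01, 1.28 and -0.12. It was high on both arrays with zymolyase in Cy3 and below 0 on the others. PDC1 and PDC5 are similar in sequence, so their ratios are uncertain too. Its mean was 0.36 ± 1.14 (limma adjusted p = 0.29), and its difference between orientations of 1.87 passed in the fit with a dye term (adjusted p = 0.028). With each array's spread set equal it was called higher at 0.64 (adjusted p = 0.043). ADH1, the alcohol dehydrogenase gene of fermentation, had a mean of -0.27 ± 0.42 and GPD2, the second glycerol phosphate dehydrogenase gene, of -0.27 ± 0.32 (limma adjusted p = 0.52 for each). PDC1 stood at 0.024 ± 0.15 and PDC6 at 0.31 ± 0.16.

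**Figure D4:**
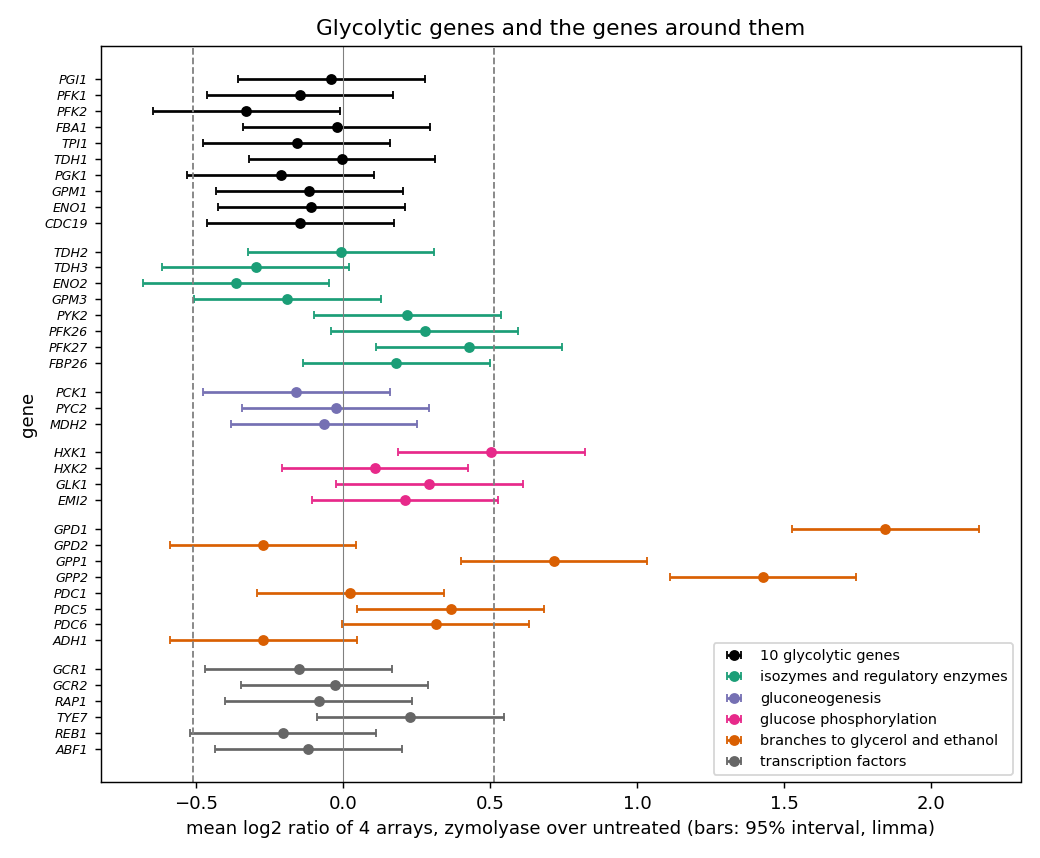
Mean log2 ratio of zymolyase over untreated over 4 arrays (x axis) for the 10 glycolytic genes and the 29 measured genes around them (y axis), with bars for the 95% interval from limma and dashed lines at 0.51, the smallest mean called. The 10 glycolytic genes lie between -0.33 and -0.0044, and GPD1, GPP1 and GPP2 at 1.84, 0.72 and 1.43.

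At the entry of the pathway, all 4 genes of glucose phosphorylation had means above 0, as had 2243 of 4730 genes tested. None of the 4 passed (median 0.25). HXK1, a hexokinase gene known to be repressed by glucose, was nearest. Its ratios were 0.78, 0.20, 0.56 and 0.48, above 0 on each array. The mean was 0.50 ± 0.24 (limma adjusted p = 0.057, or 0.032 with arrays 1 and 2 taken as one culture). HXK2, the main hexokinase gene on glucose, stood at 0.11 ± 0.14.

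The next list held isozymes and other relatives of the glycolytic enzymes, and the enzymes that make or break a fructose bisphosphate that activates phosphofructokinase. Of its 8 measured genes none passed, 4 had means above 0 and the median was 0.087. ENO2 had the lowest mean at -0.36 ± 0.68 (limma adjusted p = 0.29), resting on -1.37 on array 2 against -0.15, -0.0905 and 0.15 on arrays 1, 3 and 4. TDH3 followed at -0.30 ± 0.54 (adjusted p = 0.46) and TDH2 stood at -0.0075 ± 0.12. PFK27 encodes a kinase that makes this activator of phosphofructokinase, and its ratios were 0.27, 0.54, 0.41 and 0.49. They were above 0 on every array, with a mean of 0.43 ± 0.11 (limma adjusted p = 0.16). PYK2 had a mean of 0.22 ± 0.32. GPM2 was measured on 3 arrays, at 0.25, 0.56 and 0.33, and was not tested.

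None of the 3 gluconeogenesis genes measured on all arrays passed, with means from -0.16 for PCK1 to -0.026 for PYC2 (median -0.065). FBP1 had no value and PYC1 a value on array 3 only. Among 6 genes for transcription factors that act on glycolytic genes none passed (median -0.10). Means below 0 were found for 5 of the 6, and for 52.6% of all genes. GCR1, the activator named above, had ratios of 0.50, -0.89, 0.20 and -0.41, positive in one dye orientation and negative in the other. Its mean was -0.15 ± 0.62 (limma adjusted p = 0.83), and 0.094 without array 2. TYE7 was above 0 on every array, with a mean of 0.23 ± 0.15 (limma adjusted p = 0.65).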

How the data were processed

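Per the labels, total RNA of both parts of a culture was labelled with Cy5 or Cy3 during cDNA synthesis. The authors deposited 1 log ratio per feature and array, taken here as log2. The sources used here name no scanner, background correction, normalization or log base. Columns arrived centred (medians -0.070 to 0.017) and were used as deposited. Of 6209 features, 2 controls were left out, 5711 matched a gene of the RefSeq R64 table, which served for names only, and features of 1 gene were averaged. Genes with values on all 4 arrays (4730) entered the tests (limma 3.58.1, R 4.3.3). The ratios of a culture's 2 arrays were averaged (n = 2 cultures) and set against 0, under both possible pairings, since none is labelled. With 1 residual degree of freedom limma gave every gene the same SE, 0.16 in the fit with the larger one. SDs are over 4 arrays, which hold 2 cultures. After turning, arrays of like orientation correlated across genes at 0.60 (1 and 3) and 0.44 (2 and 4), and those of opposite orientation between -0.13 and 0.051, so the correlations do not settle whether the authors had already turned the ratios. The fits were also run on simulated data, with noise drawn independently for each array and no effect of culture. That run does not show how the fits behave when arrays share a culture. Named were the 10 members, genes of the pathway lists, and the 5 genes nearest to the member with the largest mean; the other 6 genes inside the narrow range were named after their values were seen. A list of another cell state, meiosis and spore formation, had 3 of 10 genes measured on all arrays and none called (median -0.041). The members and lists were chosen with earlier results of these data known.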

Additional observations from a re-analysis of the deposited data

Results flagged for a closer look

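On the deposited scale, before turning, array 2 stood apart as the highest of the 4 arrays for 5 genes, by Dixon's ratio of the gap to the whole range at its 95% critical value for 4 samples. The ratio was 0.966 for PGK1, 0.836 for ENO1 and 0.924 for CDC19 among the glycolytic genes, and 0.964 for TDH3 and 0.96 for ENO2. In each of these genes the other 3 arrays lay close together, and array 2 had the other sign. A total of 35 groups of 4 values were examined. All 5 flags fell among the 13 genes examined on the deposited scale. Chance alone flags about 1 in 20 groups of like samples, but these arrays differ in dye orientation and spread, so that rate may not hold. PGK1, ENO1 and CDC19 also belong to the group picked after its values were seen. None of the 21 named genes was set apart after turning. Array 2 also had the widest ratios over all features (SD 0.63), and its part in these values was not tested.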

How the results depend on the processing

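No paired analysis was possible because each array already holds both RNAs of a culture and all arrays form 1 group. Of 150 alternative values for the means of the 10 glycolytic genes, 124 kept direction and side of the threshold, 24 changed sign and 3 passed the test, 1 of these (TDH1) with its sign changed. Either pairing alone, the dye term on 4 arrays and testing partly measured genes leave each of these means unchanged. Only the test could differ there, so those values do not bear on how stable the signs are. Median centring turned none. Taking the ratios as already turned gave 0.242 for PGI1, 0.167 for PFK1, 0.292 for PFK2, 0.27 for TPI1, 0.601 for TDH1, 0.113 for PGK1, 0.303 for GPM1 and 0.0449 for CDC19, a median of 0.205 and 1 of the 10 called higher (TDH1). FBA1 (-0.138) and ENO1 (-0.0324) stayed below 0. That reading also gave 0.168 for TDH3, 0.244 for ENO2, -0.0847 for PFK27, 0.053 for GPD1, -0.0333 for GPP1, -0.0799 for GPP2 and 0.498 for GCR1, and 215 genes higher and 101 lower in all against 111 and 38. With array spreads made equal, the glycolytic genes that changed sign were PGI1 (0.0651), TDH1 (0.233) and GPM1 (0.003). Of all genes, 10 were then called lower. The orientation differences of PGK1 and CDC19 then turned to -0.0104 and -0.0848. With a dye term 68 genes were higher and 9 lower, and with median centring 14 were lower; the causes were not tested.

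Each array was left out on culture means and with a dye term. For the former, the values given are plain means of the remaining arrays. The tests on culture means instead count a lone array as a whole culture. The means of PFK2 (-0.625 to -0.0336), TPI1 (-0.261 to -0.00547) and ENO1 (-0.207 to -0.0112) stayed below 0. Those of the other glycolytic genes crossed 0. They ranged from -0.209 to 0.153 for PGI1, -0.299 to 0.0097 for PFK1, -0.0775 to 0.0339 for FBA1, -0.335 to 0.416 for TDH1, -0.44 to 0.0137 for PGK1, -0.295 to 0.104 for GPM1 and -0.312 to 0.021 for CDC19. Ranges of related genes that crossed 0 were -0.0587 to 0.0283 for TDH2, -0.607 to 0.012 for TDH3, -0.744 to 0.014 for ENO2 and -0.368 to 0.0939 for GCR1. Of the 10 glycolytic genes, 0 to 2 were called lower: PFK2 at -0.625 and PGK1 at -0.44, both with the dye term and without array 4, where the residual comes from arrays 1 and 3 only. Of the other pathway genes 1 to 7 were called higher and 0 to 4 lower, and of all genes 8 to 421 higher and 0 to 606 lower, the largest counts again in that fit. The orientation difference crossed 0 for PFK2 (-0.0069 to 1.18), PGK1 (-0.228 to 0.679), ENO1 (-0.261 to 0.131) and CDC19 (-0.243 to 0.423). It kept its sign for the other glycolytic genes. Signal over background is unknown, since no intensities were analysed here.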
